A study of Mus musculus with 5 samples.

Results

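The CD3 complex genes are Cd3d, Cd3e, Cd3g and Cd247, which encode the CD3δ, CD3ε, CD3γ and CD3ζ chains. These 4 genes, out of 22372 protein-coding genes, were chosen by name, and all 200-bp windows that the authors listed over each gene, the 10 kb before it and the 1 kb on either side of its transcription start sites (TSSs) were collected in mm9. The windows came from chromatin immunoprecipitation with sequencing (ChIP-seq) of CD4+CD8+ double-positive (DP) thymocytes of the mouse, with 1 library per group and therefore no replicate check on any difference. The series holds 5 libraries: Cxxc1 ChIP and H3K4me3 ChIP from wild-type (WT) and from Cxxc1-deficient mice, and a WT input. The 3 deposited lists cover Cxxc1 binding, WT H3K4me3 and Cxxc1-deficient H3K4me3. WT mice were Cxxc1 fl/fl. Cxxc1-deficient mice were Cxxc1 fl/fl carrying hCD2 Cre, a transgene driven by human CD2 sequences that is active from early thymocytes on and also in other immune cells, and mice were 3 to 4 weeks old unless the study said otherwise. GEO titles call the Cxxc1-deficient libraries knockouts while their genotype label reads Cxxc1+/-, and the titles were followed. The name and labels of the Cxxc1 list give no genotype, so that it is called WT here because the methods describe it so.

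The T-cell receptor (TCR) recognizes antigen through its α and β chains, which have almost no cytoplasmic part. It signals through the CD3 chains, which assemble with it as a CD3γ-CD3ε pair, a CD3δ-CD3ε pair and a CD3ζ homodimer. The CD3 chains carry the tyrosine motifs (ITAMs) that Lck phosphorylates and Zap70 then binds. CD3ε is shared by both heterodimers, and CD3ζ completes the complex and allows its export to the cell surface. DP thymocytes need this complex to be selected on self ligands. H3K4me3 marks the promoters of active genes, and Cxxc1, which binds unmethylated CpG, belongs to the Setd1 complexes that place it.

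Cd3d, Cd3g and Cd3e form 1 cluster on chromosome 9. Cd3g (ENSMUSG00000002033.7, 44777655 to 44788514, minus strand) and Cd3d (ENSMUSG00000032094.7, 44789876 to 44795135, plus strand) are head to head with TSSs 1.36 kb apart. Cd3e (ENSMUSG00000032093.6, 44806826 to 44817673, minus strand) starts 27.8 kb from the Cd3d TSS. Cd247 (ENSMUSG00000005763.8) lies alone on chromosome 1 at 167718812 to 167807407 on the plus strand, 88.6 kb long, with 4 annotated TSSs. The 250 bases before each first TSS are shown because CpG is the sequence that Cxxc1 binds, with every CpG in capitals.
Cd3e (chr9:44817674-44817923, minus strand): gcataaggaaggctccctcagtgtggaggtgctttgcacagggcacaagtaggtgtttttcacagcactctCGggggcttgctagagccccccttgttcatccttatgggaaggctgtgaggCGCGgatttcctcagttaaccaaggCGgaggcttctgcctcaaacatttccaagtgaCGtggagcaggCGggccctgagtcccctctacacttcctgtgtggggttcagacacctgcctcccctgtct
Cd3g (chr9:44788515-44788764, minus strand): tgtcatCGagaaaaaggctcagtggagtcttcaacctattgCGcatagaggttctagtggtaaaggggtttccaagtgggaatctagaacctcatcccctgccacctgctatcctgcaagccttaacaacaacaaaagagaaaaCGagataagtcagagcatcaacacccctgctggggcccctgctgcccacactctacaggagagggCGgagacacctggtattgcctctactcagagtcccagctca
Cd3d (chr9:44789626-44789875, plus strand): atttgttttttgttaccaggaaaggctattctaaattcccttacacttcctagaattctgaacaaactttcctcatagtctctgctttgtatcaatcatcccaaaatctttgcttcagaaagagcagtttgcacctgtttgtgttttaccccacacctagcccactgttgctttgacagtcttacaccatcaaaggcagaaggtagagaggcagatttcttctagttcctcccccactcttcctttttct
Cd247 (chr1:167718562-167718811, plus strand): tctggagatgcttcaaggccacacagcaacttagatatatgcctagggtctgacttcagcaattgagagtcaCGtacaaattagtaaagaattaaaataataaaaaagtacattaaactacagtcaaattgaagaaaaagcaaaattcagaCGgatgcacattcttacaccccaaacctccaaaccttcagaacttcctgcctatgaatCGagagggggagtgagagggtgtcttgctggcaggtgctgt
These promoters hold 6, 4, 0 and 3 CpGs, against a median of 9 among all 22372 promoters of the same length, of which 92.5% hold at least 1. The Cd3d promoter, with no CpG, holds CTTTGA 2 times, a letter string found on either strand in 13.3% of all promoters. The letters GGAA, the core that Ets factors bind, occur 6 times at Cd3d, 5 times at Cd3e, 2 times at Cd3g and 1 time at Cd247, and 93.0% of promoters hold them. CANNTG, the E-box that E proteins bind, occurs 1, 2, 3 and 2 times at Cd3d, Cd3e, Cd3g and Cd247, and 63.3% of promoters hold it. TGTGGT (12.7% of promoters) and TATAAA (12.3%) are in none of the 4 windows. GGGCGG, which contains a CpG, occurs once, at Cd3g, and is in 40.1% of promoters. All motifs were searched on both strands.

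Values are in RPM, tags scaled by the authors to the total of each library. Windows outside a called island have no value, so the signal of a place that is not listed is unknown rather than 0. The smallest step between values placed each H3K4me3 library at 9.44 to 9.47 M tags and the Cxxc1 library at 9.10 to 9.12 M tags, and each window could be read as a whole number of tags. If the tags fell evenly over the assembled bases, a window would hold 0.740 tags in the WT H3K4me3 library, whereas listed windows held at least 2. Of 8 DP thymocyte markers named, 7 were found in the annotation, and WT H3K4me3 was listed within 1 kb of a TSS at 2 of these (Cd8a and Cd8b1, with Cd4, Rag1, Rag2, Cd1d1 and Themis not listed). A WT promoter window was listed at 31.1% of all genes, so the DP markers did not stand out and the labelled cell type could not be checked from them. It was listed at 1 of 5 B cell markers (Cd79b), 1 of 5 myeloid markers (Cebpa), 1 of 4 erythroid markers (Klf1), 0 of 5 thymic epithelium markers and 0 of 4 NK cell markers. The summed WT promoter values were 5.7 RPM for the DP list and 0.4, 1.2 and 0.9 RPM for the B cell, myeloid and erythroid lists. In the Cxxc1-deficient list Rag1 and Cd8a were listed, with 2.2 RPM in all, and no marker of another cell type. The part of other cells in the CD3 values was not tested.

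Cd3e was the only one of the 4 CD3 genes with H3K4me3 listed at its promoter in both genotypes. Within 1 kb of its TSS the WT library held 1.8 RPM in 6 windows, 18 tags (exact 95% Poisson interval 10.7 to 28.4), and the Cxxc1-deficient library held 1.9 RPM in 6 windows, 19 tags (11.4 to 29.7). The sums differed by 1 tag, but only 2 of the windows were listed in both libraries. Over the whole peak, each library held 32 tags (21.9 to 45.2). The WT peak spanned 44815601 to 44817800, from the second intron to just past the TSS. The Cxxc1-deficient peak was longer, at 44815801 to 44818800, and reached into the intergenic sequence upstream. Joining windows across at most 2 missing ones defines these peaks. Over their full widths the listed tags came to 3.93 and 2.89 times an even spread. Unlisted windows inside a peak were counted as empty, which lowers these folds. The even spread runs over all assembled bases, whether or not reads map there uniquely, which may raise them. The gap between them reflects the wider span, since each peak held 32 tags in 10 listed windows.

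The windows of the Cd3e peak can be read in order. In WT, going from 2 kb inside the gene to the TSS, the 10 listed windows held 0.3, 0.2, 0.5, 0.4, 0.2, 0.4, 0.2, 0.2, 0.4 and 0.4 RPM. No window stood out as a summit. In Cxxc1-deficient cells the 10 listed windows held 0.4, 0.3, 0.2, 0.4, 0.3 and 0.4 RPM inside the gene and 0.4, 0.2, 0.3 and 0.3 RPM upstream of the TSS. Both genotypes listed 5 windows in common, with 15 tags in WT and 18 in Cxxc1-deficient cells, a ratio of 1.20 (exact 95% interval 0.571 to 2.56). The Cxxc1-deficient value was higher in 3 of these, equal in 1 and lower in 1. Only windows called in both libraries enter this ratio, which leaves out 20 WT and 5 Cxxc1-deficient windows of the cluster. The interval does not cover that selection, so the ratio does not measure the difference between genotypes. Of the tags listed within 2 kb of the TSS, 4 of 32 lay upstream in WT, or 12.5% (exact 95% interval 3.51% to 29.0%), and 12 of 32 in Cxxc1-deficient cells, or 37.5% (21.1% to 56.3%). These intervals overlap. They cover counting error only, as do the intervals on tags. By RPM, 87.5% at Cd3e lay downstream of the TSS in WT and 62.5% in Cxxc1-deficient cells. Over all genes with a listed window within 2 kb of their first TSS, these shares were 59.1% and 56.7%. The WT share of Cd3e was thus the one further from that of all genes.

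A promoter listed in both genotypes was a minority case. A WT window within 1 kb of a TSS was listed at 2 of the 4 CD3 genes (Cd3e and Cd247), and at 31.1% of all genes. A Cxxc1-deficient window was listed at 1 of the 4, and at 5.86% of all genes. Among the 6962 genes with a WT promoter window, 12.8% also had a Cxxc1-deficient one, and Cd3e was 1 of these 893 genes.

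**Figure D1:**
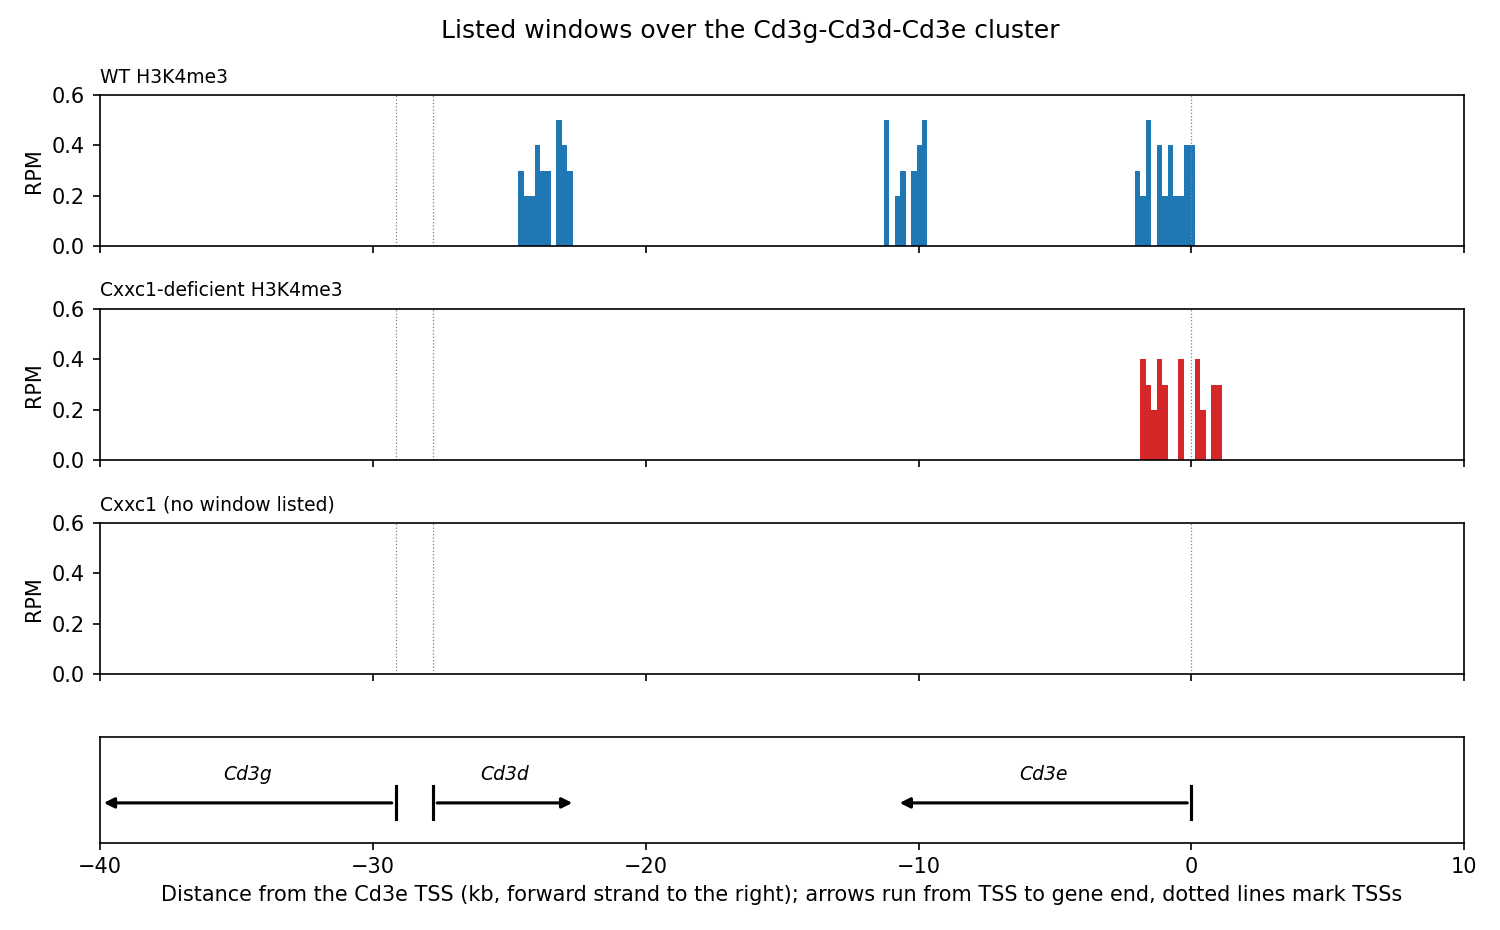
RPM of each listed 200-bp window (bars) along the Cd3g-Cd3d-Cd3e cluster with 10 kb on the Cd3e side, plotted as distance in kb from the Cd3e TSS, for WT H3K4me3, Cxxc1-deficient H3K4me3 and Cxxc1, 1 library each. Of the 3 WT peaks, the one at the Cd3e TSS has a Cxxc1-deficient counterpart of the same 3.2 RPM, and no Cxxc1 window is listed.

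Cd3d and Cd3g, the partners of CD3ε in the heterodimers, had no listed H3K4me3 window at their TSSs in either genotype. Across their shared head-to-head region and all of Cd3g, no window was listed in any list. The nearest WT window began 3.12 kb downstream of the Cd3d TSS and 4.49 kb upstream of the Cd3g TSS. It opened a peak at 44793001 to 44795000 over the exons of Cd3d after its first, from coding sequence into the 3′ UTR, with 2.9 RPM in 9 windows, 29 tags (19.4 to 41.6). Its windows held 0.3, 0.2, 0.2, 0.4, 0.3, 0.3, 0.5, 0.4 and 0.3 RPM from 5′ to 3′ along Cd3d, and it was not listed in Cxxc1-deficient cells. Because this peak also falls within 10 kb upstream of Cd3g, the 2.9 RPM counts for both genes. H3K4me3 in the gene body or upstream with none at the TSS occurred at 10.4% of all genes.

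A further WT peak lay at the 3′ end of Cd3e, at 44806401 to 44808000, centred 10.5 kb from its TSS. It ran from just beyond the annotated gene end through the 3′ UTR into the last intron and held 2.2 RPM, 22 tags (13.8 to 33.3). It was not listed in Cxxc1-deficient cells. The highest windows of this peak, 0.5 RPM each, were its first and its last. In the whole cluster, taken with the 10 kb before Cd3e, the WT library thus listed 3 peaks with 25 windows and 8.3 RPM, 83 tags (66.1 to 103). The Cxxc1-deficient library listed 1 peak with 10 windows and 3.2 RPM, 32 tags (21.9 to 45.2). The 2 peaks at the 3′ ends of Cd3d and Cd3e were listed in WT alone, and the Cd3e promoter peak was listed in both genotypes over partly different windows. Listed windows averaged 0.332 RPM in WT, close to the 0.320 RPM of Cxxc1-deficient cells. The Cxxc1 library listed no window in the cluster, and its nearest one was 91.3 kb from the Cd3e TSS.

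Cd247 differed from Cd3e. WT H3K4me3 was listed at its promoter and along the gene, and no Cxxc1-deficient window was listed anywhere in the gene or 10 kb upstream. The nearest Cxxc1-deficient window was 86.4 kb from a Cd247 TSS. In the gene body or 10 kb upstream, all 4 CD3 genes had a WT window, as did 41.5% of all genes, and 1 of the 4, Cd3e, had a Cxxc1-deficient window, as did 11.0% of all genes. Among the 9276 genes with a WT window there, 79.6%, like Cd247, had no Cxxc1-deficient one. Within 1 kb of the TSSs the WT library held 2.4 RPM in 7 windows, 24 tags (15.4 to 35.7). The promoter peak, at 167718601 to 167721000, held 4.5 RPM in 12 windows, 45 tags (32.8 to 60.2). Of its RPM, 88.9% lay downstream of the first TSS. Over all genes, 59.1% of the WT RPM within 2 kb of the first TSS did. The windows of the Cd247 promoter peak held 0.5, 0.3, 0.5, 0.2, 0.3, 0.2, 0.4, 0.6, 0.6, 0.3, 0.3 and 0.3 RPM from 5′ to 3′. The highest values, 0.6 RPM or 6 tags per window, lay inside the first intron. The windows on either side of the one holding the first TSS had 5 tags each, so no clear summit stood out.

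Beyond its promoter, Cd247 had 7 further WT peaks, 8 in all, holding 25.4 RPM in 67 windows, 254 tags (224 to 287). One lay upstream in intergenic sequence, at 167710201 to 167712400, ending 6.41 kb before the first TSS, with 3.6 RPM and the highest single window of the gene, 0.8 RPM. Inside the gene, peaks centred 17.9, 28.9, 51.0 and 56.6 kb from the nearest TSS lay in the first intron and held 3.5, 2.6, 3.5 and 3.6 RPM. The one at 56.6 kb, at 167774801 to 167776200, held the most listed tags for its width among the 8, at 6.95 times an even spread. All of its 7 windows were listed, whereas unlisted windows inside other peaks were counted as empty. The 2 remaining peaks, centred 67.1 and 70.3 kb from the nearest TSS, covered coding exons and held 1.7 and 2.4 RPM. The last also covered the annotated start of a shorter Cd247 transcript that is not typed as protein-coding and was not counted as a TSS. Listed windows together covered 13.6% of the region. No window was listed at the 3′ end of Cd247, which Pou2f1 overlaps on the other strand.

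So many separate WT peaks were uncommon for a gene of this size. Among 1011 genes within 1.5 times the length of Cd247 (59.1 to 133 kb) that had a WT promoter window, the median was 1 peak and the highest 14. Cd247 stood at percentile 97.0, and 30 of the 1011 genes, 2.97%, had at least 8. By summed WT RPM over the gene body and 10 kb upstream, Cd247 stood at percentile 99.4 of the 9276 listed genes, a value that grows with gene length. By the share of that region covered by listed windows, which does not add up along the gene, it stood at percentile 85.1, with Cd3e at 14.4% and percentile 86.6, Cd3d at 11.8% and percentile 80.7, and Cd3g at 8.63% and percentile 69.7. The median share was 5.10%.

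**Figure D2:**
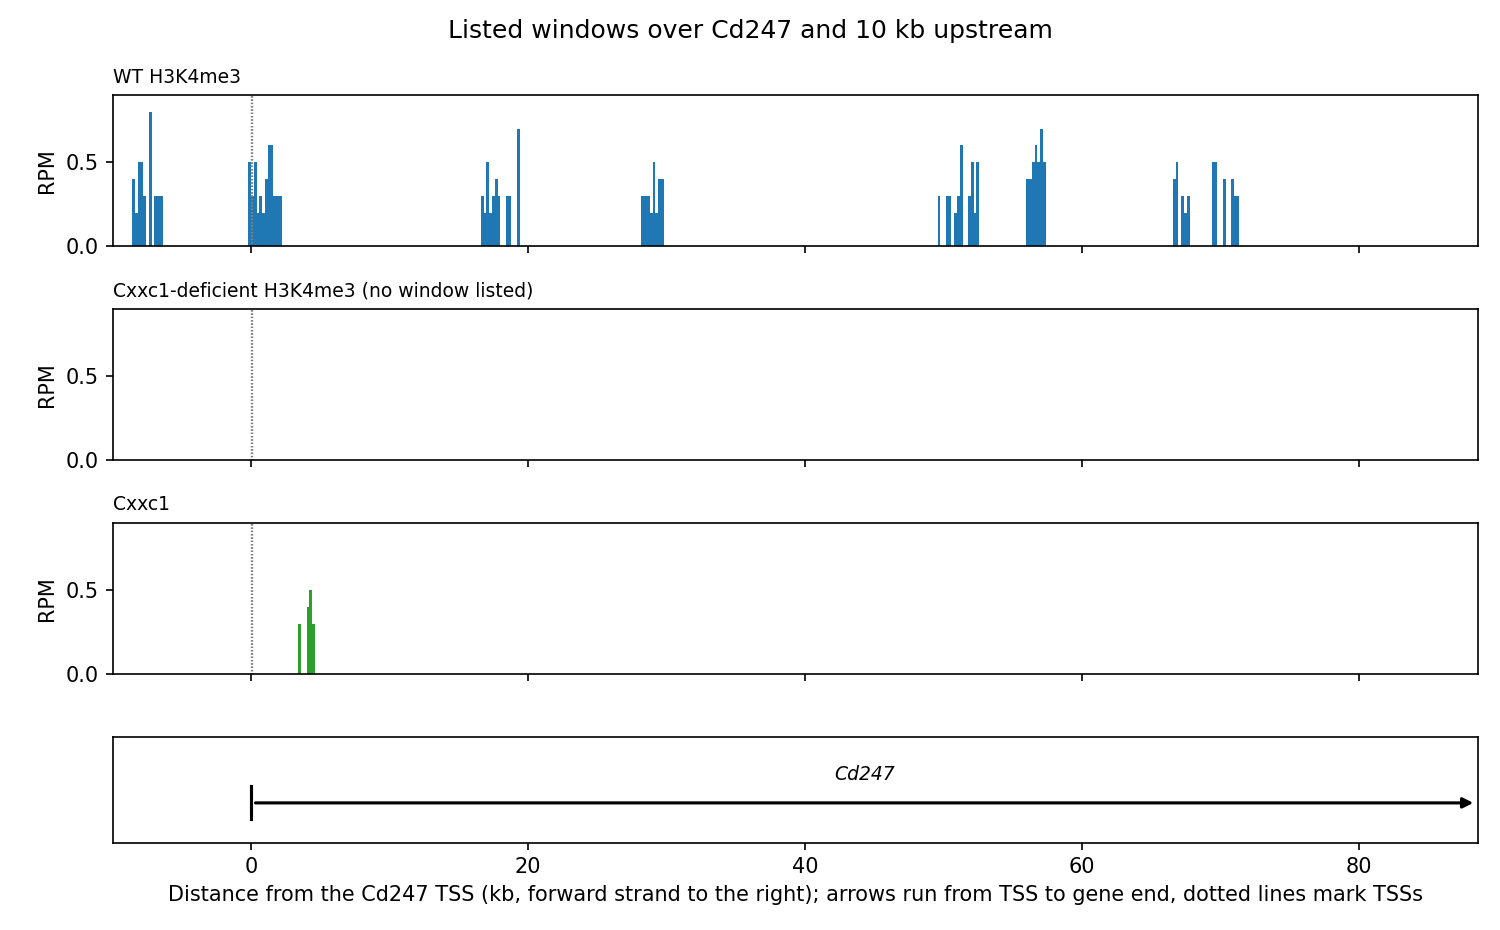
RPM of each listed 200-bp window (bars) from 10 kb upstream of Cd247 to its end, plotted as distance in kb from its first TSS, for WT H3K4me3, Cxxc1-deficient H3K4me3 and Cxxc1, 1 library each. WT H3K4me3 falls into 8 peaks, 1 upstream and the last centred 70.3 kb downstream, no Cxxc1-deficient window is listed, and the single Cxxc1 peak is centred 3.90 kb downstream of the TSS.

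Cxxc1 binding was listed at 1 of the 4 CD3 genes, Cd247, and at 11.1% of all genes, within the gene or 10 kb before it. No CD3 promoter had a Cxxc1 window within 1 kb of a TSS, and 1.96% of all genes did. The Cd247 peak lay in the first intron at 167722201 to 167723400 and held 1.5 RPM in 4 windows, with 3, 4, 5 and 3 tags, 15 in all (8.40 to 24.7). It began 1.20 kb beyond the end of the WT H3K4me3 promoter peak and overlapped no H3K4me3 peak. It was a weak peak, at percentile 14.7 of the Cxxc1 list, whose median was 1.7 RPM. Its strongest window, shown because it held the highest Cxxc1 value of the CD3 genes, is printed with any CpG in capitals.
Cd247 Cxxc1 window (chr1:167723001-167723200, plus strand): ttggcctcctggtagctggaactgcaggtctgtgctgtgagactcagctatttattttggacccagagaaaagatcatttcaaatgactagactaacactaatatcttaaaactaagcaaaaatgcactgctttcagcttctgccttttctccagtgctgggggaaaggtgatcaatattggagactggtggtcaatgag
This window holds 0 CpGs. The whole peak holds 8, or 0.667 per 100 bp, at percentile 20.8 of the Cxxc1 list, whose median was 1.08 per 100 bp. Of the 9276 genes with WT H3K4me3 in the gene body or 10 kb upstream, 16.2% also had a Cxxc1 window there, and 29.3% of those 1506 had a Cxxc1-deficient H3K4me3 window, which Cd247 did not.

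The ranks of the 2 listed WT promoters depended on how the promoter was measured. Cd247, at 2.4 RPM, equalled the median of the 6962 listed genes and stood at percentile 49.6. Cd3e, at 1.8 RPM, stood at percentile 19.97. Widening the promoter to 2 kb either side, which takes in more of each peak, placed Cd3e at percentile 67.4 and Cd247 at 88.9. By mean RPM per listed window they stood at percentiles 2.16 and 18.5. In the Cxxc1-deficient list, Cd3e stood at percentile 52.1 of 1312 genes. As whole peaks, the Cd3e promoter peak ranked at percentile 78.9 of the WT list and 93.4 of the Cxxc1-deficient list with the same 3.2 RPM, and the Cd247 promoter peak at percentile 93.5 of the WT list.

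**Figure D3:**
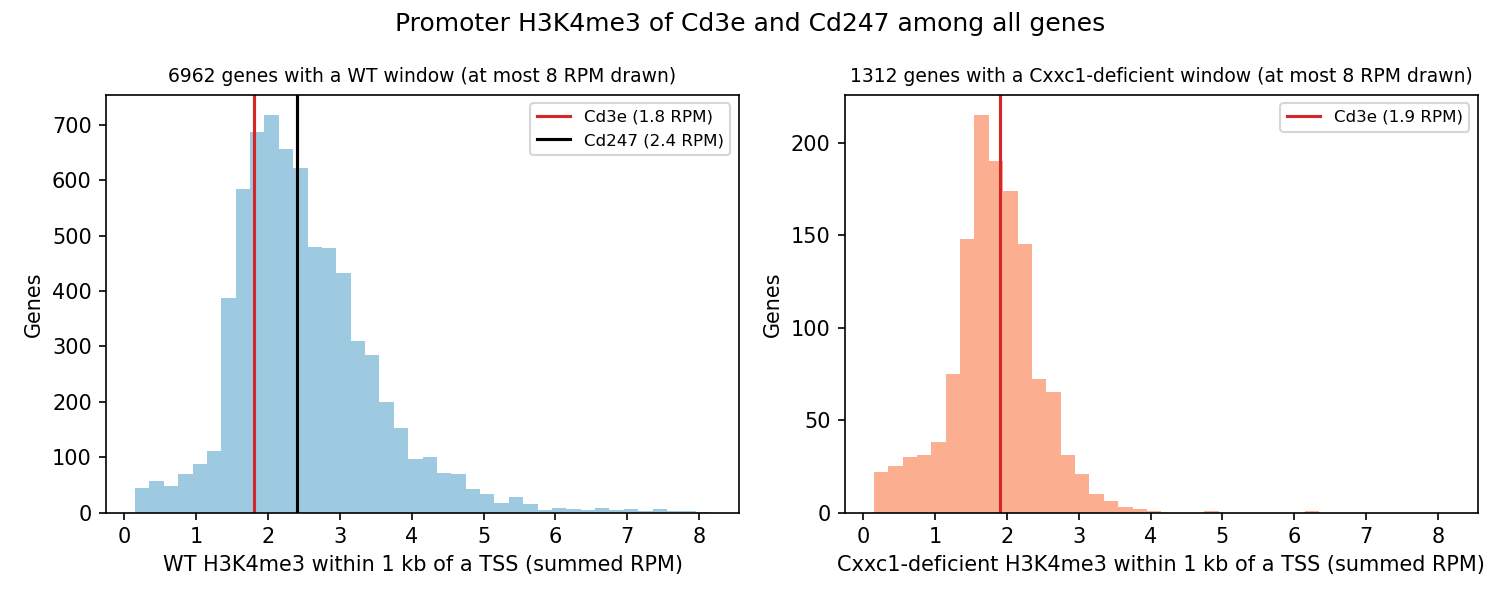
Number of genes (y axes) by summed H3K4me3 RPM within 1 kb of a TSS (x axes, up to 8 RPM) in WT (left, 6962 genes) and Cxxc1-deficient cells (right, 1312 genes), 1 library each. Lines mark Cd3e at 1.8 RPM and Cd247 at 2.4 RPM in WT, and Cd3e at 1.9 RPM in Cxxc1-deficient cells, near the median of that list.

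The promoters of Cd3d and Cd3g were poor in CpG, and those of Cd3e and Cd247 lay nearer the middle of all genes. Within 1 kb of the first TSS there were 41 CpGs at Cd3e, 39 at Cd247, 19 at Cd3d and 15 at Cd3g, against a median of 61 over all genes. The observed to expected CpG ratio was 0.374 at Cd3e (percentile 41.6), 0.329 at Cd247 (37.7), 0.184 at Cd3d and 0.130 at Cd3g (10.4), with a median of 0.469. The order of the 4 genes by CpG ratio placed the 2 that were listed in WT above the 2 that were not. Across all genes, a WT promoter window was listed at 3.64% of the quintile with the lowest ratio, which holds Cd3d and Cd3g, with Cd3d at its upper edge. The share was 12.2% in the quintile of Cd247, 31.8% in that of Cd3e, and 49.6% and 58.3% in the quintiles above. The share of listed WT promoters that were also listed in Cxxc1-deficient cells was 12.9%, 14.6%, 13.1%, 12.6% and 12.5% from the lowest to the highest quintile. The CD3 peaks themselves held 1.25 to 4.21 CpGs per 100 bp in WT, where the median peak held 2.50, and the Cd3e peak of Cxxc1-deficient cells held 1.77, at percentile 49.7 of its list.

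**Figure D4:**
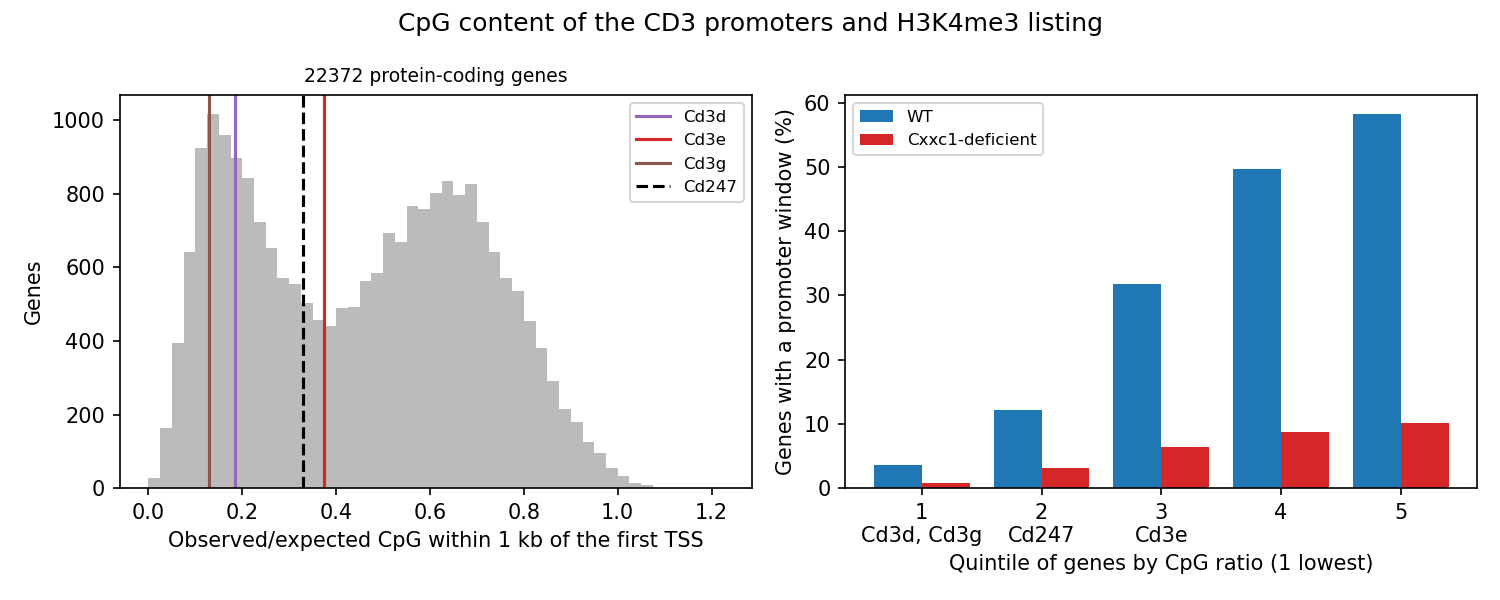
Left, number of genes by observed to expected CpG ratio within 1 kb of the first TSS, with lines for the 4 CD3 genes between 0.130 and 0.374. Right, percent of genes with a listed H3K4me3 promoter window in WT and Cxxc1-deficient cells for quintiles of genes by that ratio (bars), with the CD3 genes named under their quintile. The WT bars climb from 3.64% to 58.3%.

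A list of genes of TCR signalling and its regulation, coreceptors included, was set beside the CD3 genes. Of 28 TCR signalling genes, 27 were found in the annotation. Of these, 15, or 55.6%, had a WT H3K4me3 promoter window, against 31.1% of all genes. The median of the 15 was 3.0 RPM, against 2.4 RPM over all listed genes. The highest were Zap70 (4.8 RPM, 48 tags), the kinase that docks on phosphorylated CD3 chains, Lck (4.5 RPM, 45 tags), the kinase that phosphorylates them, and the surface receptor Cd6 (3.9 RPM, 39 tags). Each sum exceeded that of both CD3 promoters that were listed. These sums run over all annotated TSSs of a gene and so cover regions of unlike width. Per listed WT window, Zap70 (0.282 RPM) lay below Cd3e (0.3 RPM), and Cd6 (0.3545 RPM) lay above it. A Cxxc1-deficient promoter window was listed at 6 of the 27 genes, 22.2%, against 5.86% of all genes. Of the 15 with a WT window, 5 had one, or 33.3%, against 12.8% of all genes with a WT promoter window. Because windows were called separately in each library, the summed values of these promoters move with how many windows were listed. Zap70 held 4.8 RPM in 17 WT windows and 1.5 RPM in 5 Cxxc1-deficient windows, while the mean per listed window was 0.282 and 0.3 RPM. The median listed window of each whole H3K4me3 list was also 0.3 RPM, so this mean says little about genotype. Cd6 held 3.9 RPM in 11 windows and 1.2 RPM in 4, and the coreceptor gene Cd8a 2.7 RPM in 8 windows and 1.5 RPM in 5. These 3 promoters thus had fewer windows listed in Cxxc1-deficient cells. Rasgrp1, a Ras activator, held 3.1 RPM in 7 windows and 2.3 RPM in 8, and the adaptor gene Nck2 1.9 RPM in 5 windows and 2.2 RPM in 6. The Cd3e promoter, with 6 windows in each library, was the only one of these 6 genes with an equal number. Lcp2, which encodes the adaptor SLP-76, held 0.6 RPM in Cxxc1-deficient cells with no WT promoter window listed.

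None of the 27, and none of the CD3 genes, had a Cxxc1 window within 1 kb of a TSS. Only 1.96% of all genes had one, so its absence sets neither group apart. In the gene body or 10 kb upstream, 6 of the 27, 22.2%, had a Cxxc1 window, against 11.1% of all genes. These were Lck (2.3 RPM), Lcp2 (1.9 RPM), the phosphatase gene Ptprc (1.9 RPM), Cd8a (1.6 RPM), Zap70 (1.5 RPM) and the adaptor gene Grap2 (0.7 RPM). Cd247, at 1.5 RPM, fell within this range. Without the upstream part, 3 of the 27 had one.

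**Figure D5:**
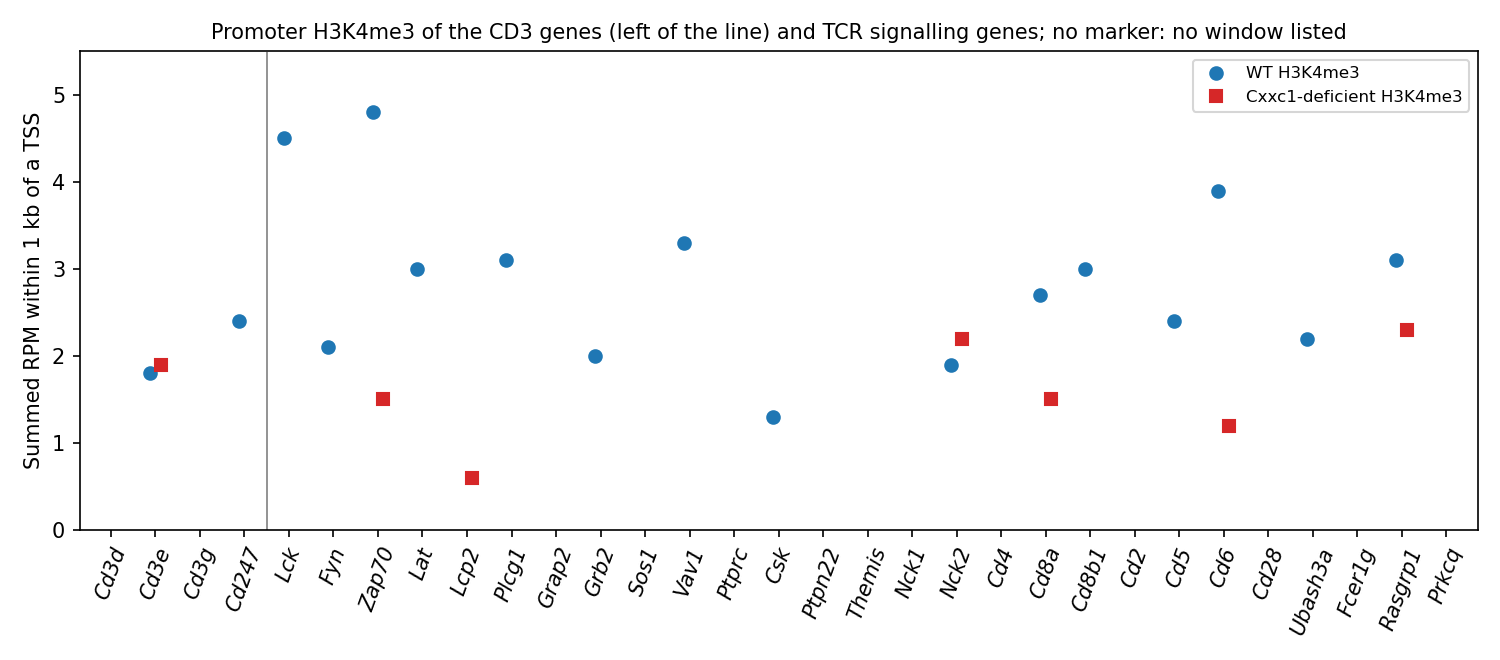
Summed H3K4me3 RPM within 1 kb of a TSS (y axis) for the 4 CD3 genes, left of the line, and 27 TCR signalling genes, with circles for WT and squares for Cxxc1-deficient cells, 1 library each. A gene without a marker had no listed window, as Cd3d and Cd3g did. Cd3e and Nck2 are the genes whose square lies above their circle.

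The genes nearest the CD3 loci were described in the same way. On the Cd3g side, Ube4a and Atp5l had no listed window in any list, and Mll1 held 1.2 RPM at its promoter in WT only. On the Cd3e side, Mpzl2 held 1.7 RPM in WT only, while Mpzl3 and Amica1 had no H3K4me3 window. For Cxxc1, Amica1 held 1.6 RPM in its gene body or 10 kb upstream and had no promoter window. Cd3e was thus the one promoter with a Cxxc1-deficient window among the genes named on this chromosome 9 stretch. Around Cd247, the promoters of Creg1 (2.4 RPM), Rcsd1 (0.5 RPM) and Pou2f1 (4.7 RPM) were listed in WT only, like that of Cd247. Away from its promoter, in the gene body or 10 kb upstream, Rcsd1 also held 3.2 RPM of Cxxc1-deficient H3K4me3 and 8.6 RPM of Cxxc1. Mpzl1, 154 kb away, was listed in WT (1.8 RPM), in Cxxc1-deficient cells (1.5 RPM) and for Cxxc1 (2.7 RPM). Dusp27 and Gpa33 had no promoter window.

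Over the 3 lists, 862 other genes shared the promoter state of Cd3e, listed in both H3K4me3 libraries and not for Cxxc1. Nearest to it in number of windows and WT RPM were Cyb561d2 and Erg, with the same 6 windows and 1.8 RPM in WT and with 2.4 and 1.4 RPM in Cxxc1-deficient cells, and Fbxl22, with 1.9 RPM in each, at a distance of 0.078 log2 units that 9 genes shared. The state of Cd247, listed in WT alone, was that of 5898 other genes, of which 93 had exactly its 7 windows and 2.4 RPM, so no single gene stood nearest. The promoters of Cd3d and Cd3g had no window in any list, a state shared by 14763 other genes, and no likeness could be measured.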

How the data were processed

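Per the labels and the methods of the study, 50-bp reads were obtained with CASAVA 1.8.2 and mapped to mm9, and uniquely mapped reads were given to SICER 1.1 with the input and the Cxxc1-deficient ChIP as controls. The aligner, the treatment of duplicates and the control used for H3K4me3 are not given in the sources used here, and any of them may alter the listed places. The authors deposited the 200-bp windows of called islands with a value in RPM at 1 decimal, from 1 library each. The input and the Cxxc1 ChIP of Cxxc1-deficient cells were not used here.

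Windows overlapping a region by at least 1 bp were summed, and the tags of each window are its RPM divided by the value of 1 tag and rounded to whole tags, then summed. The value of 1 tag was inferred as 0.1056 to 0.1057 RPM for WT and 0.1058 to 0.1059 RPM for Cxxc1-deficient H3K4me3 and 0.1097 to 0.1099 RPM for Cxxc1. Since each deposited value is rounded to 1 decimal, summed RPM lie somewhat below the summed tags times this value. Genes and TSSs were protein-coding transcripts of GENCODE vM1 on NCBIM37, the assembly of mm9. Sequences came from that genome. With 1 library per group no test was run. Intervals on tags are exact Poisson and those on shares and ratios exact binomial (Clopper-Pearson), for counting error only. Work was done in Python 3.11.15 with numpy 2.4.6, pandas 2.3.3 and scipy 1.17.1, and the functions were tested on simulated data.

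The members and lists were chosen with earlier results of these data known. Part of the TCR signalling list is not reported here and was left out of its counts. Named are all members, TCR signalling genes with a Cxxc1-deficient promoter window, with a Cxxc1 window, or among the 3 highest in WT, the 3 nearest genes on each side, and the 3 genes most like each member. Alternatives were other promoter widths and upstream lengths, first TSSs, other joining of windows, windows of at least 3 tags and mean values per window.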

Additional observations from a re-analysis of the deposited data

How the results depend on the processing

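Of 82 alternative values for 20 results, 69 stayed within the counting interval of the summed value or rank, or within 1.5 times a count of genes or peaks, and 13 moved. The 69 include values of 0 that stayed 0, such as Cxxc1 in the cluster. With promoters of 5 kb either side, 4 CD3 genes had a WT H3K4me3 promoter window, since the Cd3d peak then counts for Cd3d and Cd3g, and 1 had a Cxxc1 window. Without the upstream part, the cluster held 2.0 RPM in Cxxc1-deficient cells, Cd247 held 21.3 RPM in WT, and 3 TCR signalling genes had a Cxxc1 window, by the smaller region. With 50 kb upstream, WT values were 10.3 RPM in the cluster and 30.2 RPM at Cd247, by the larger region. With promoters of 2 kb either side, Cd247 stood at percentile 88.9 of WT promoters. Cd3e went from percentile 19.97 to 67.4 there and was still counted as within its interval. Staying within the interval therefore does not mean that a rank was stable. Joining only adjoining windows split the peaks of the cluster into 7 in WT and 4 in Cxxc1-deficient cells, and those of Cd247 into 18 for WT H3K4me3 and 2 for Cxxc1. By mean RPM per window, Cd3e stood at percentile 2.16 of WT promoters. No percentile could be given for Cd3d and Cd3g, which have no WT promoter window within 1 kb. No paired analysis was possible because groups held single libraries. Single peaks rest on 15 to 45 tags, and an unlisted place has no value.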
